A study of Mus musculus with 4 samples.

Results

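The caudoputamen (CP) and the lateral septal complex (LSX) were compared within the same striatal sections of 5 control mice, gene by gene. The 10 region columns used, 1 CP and 1 LSX column per mouse, were chosen by their labels from 47 in the series. The 5 controls were GqVeh mice 802, 784 and 785 and CNO alone mice C2W2 and C1W7. All carried the genotype DAT (iCre/iCre), so that Cre was made under the dopamine transporter gene in every mouse. The GqVeh mice had received a conditional AAV for the excitatory receptor hM3Dq, tagged with mCherry, on both sides of the midbrain and then drank 2% sucrose for 1 week. The CNO alone mice were not injected and drank the hM3Dq ligand clozapine-N-oxide (CNO) at 300 mg/L with 2% sucrose for 1 week. The labels give male sex and an age of 3-4 months for the injected mice only, and all mice were housed singly with a running wheel. Mice 802 and C2W2 shared 1 Visium array, and mice 784, 785 and C1W7 shared the other, so that the arrays held both control groups. The column labels carry a code, C2 on the former array and C1 on the latter. Effects of the array and of what the code stands for cannot be told apart. Visium captures the RNA of a 10 μm section on barcoded discs, each of which covers several cells, and each captured RNA molecule is counted once by its barcode (UMI, unique molecular identifier). Levels below are UMIs per 10000 of a column, and values for the 5 mice are always listed in the order 802, 784, 785, C2W2 and C1W7.

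The CP and the LSX both arise largely from the embryonic ventral forebrain, and the principal cells of both are GABAergic projection neurons. In the CP, medium spiny neurons form a direct pathway, marked by the dopamine receptor Drd1 with the peptides substance P and dynorphin, and an indirect pathway, marked by Drd2, the adenosine receptor Adora2a and enkephalin. Their response to dopamine runs through cyclic AMP and DARPP-32, the product of Ppp1r1b. The lateral septum links the hippocampus with the hypothalamus, and its neurons are known for Zic transcription factors, neurotensin, somatostatin and many peptide and hormone receptors.

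The depth of the regions differed. A CP column summed 455 to 560 discs and 4544683 to 7977003 UMIs, and an LSX column 6 to 93 discs and 107462 to 1354667 UMIs. The LSX of mouse 784 held 6 discs, so that 3 UMIs there equal 0.279 per 10000, and 1462 of the tested genes had no UMI in that column. The study's methods chose discs by their place in the section and by marker genes. The markers were Ppp1r1b for the CP, Prkcd for the LSX and Mbp for white matter. Discs high in Gfap, Aldh1l1, Aif1 or P2ry12 were left out. Values of these 7 genes therefore describe the choice of discs. Fewer cells of a type and less RNA per cell cannot be told apart in sums over discs.

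Drd1 was not used to choose discs, but it is expressed in the medium spiny neurons that Ppp1r1b marks. It is therefore not an independent check of the region labels. Drd1 measured 2.77, 2.27, 2.27, 2.86 and 2.17 in the CP and 0.0579, 0.186, 0.0982, 0.17 and 0.0591 in the LSX, a 21.6-fold ratio of the means, with every CP value above every LSX value. Ppp1r1b, which chose the CP discs, measured 23.7, 25.9, 24.1, 23.6 and 22.4 in the CP and 0.637, 0.558, 0.835, 0.583 and 0.65 in the LSX. Prkcd, the protein kinase C delta gene that chose the LSX discs, measured 3.71, 1.95, 3.61, 4.35 and 4.98 in the LSX and 0.0319, 0.0489, 0.066, 0.0569 and 0.0572 in the CP. The LSX of mouse 784, the column with 6 discs, had the lowest Prkcd level of the 5.

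Of 11097 genes tested, 1415 (12.8%) were higher in the CP and 2074 (18.7%) were higher in the LSX at an adjusted p under 0.05. Counts in the gene lists below are to be read against these shares. The test was limma on the log2 difference within each mouse (CP minus LSX, 0.05 added to each level), with Benjamini-Hochberg adjustment over all genes tested. Within the array of mice 802 and C2W2 the counts were 1306 and 1723, and within the other array 752 and 1087. Of the 3489 genes called, 3248 had the same direction in all 5 mice. The counts at larger sizes were close, with 609 genes at least 2-fold higher in the CP and 599 in the LSX, and 139 against 146 at 4-fold. The split of all calls depended on the scaling. CP genes made up 40.6% of calls here and 64.4% with TMM scaling (2129 against 1177 genes), which moved the median of all genes by 0.19 on the log2 scale, from -0.06 to 0.13. Small differences are therefore read against that shift, and of the 1208 genes called at 2-fold or more, 1205 were also called with the same sign under TMM scaling. Of the 1475 genes called higher in the LSX at under 2-fold, only 581 kept that call under TMM scaling.

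**Figure D1:**
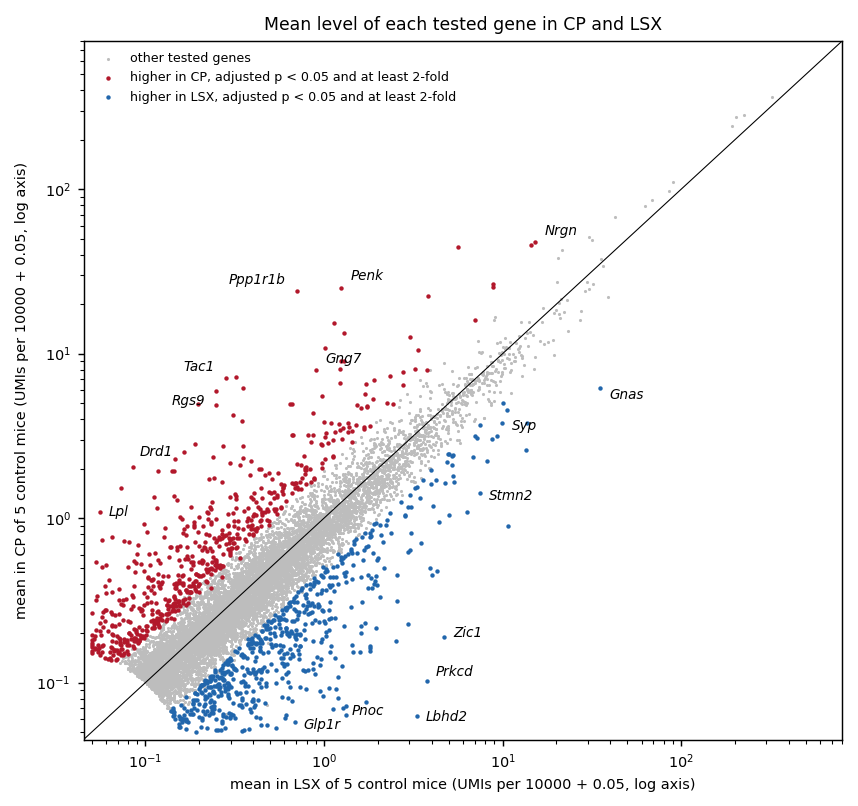
Mean level of each of the 11097 tested genes in the LSX (horizontal) and the CP (vertical) of 5 control mice, in UMIs per 10000 with 0.05 added, on log axes. Red and blue points are the 609 and 599 genes at least 2-fold higher in the CP or the LSX at an adjusted p under 0.05, and the line marks equal levels. Striatal genes such as Ppp1r1b, Penk and Tac1 lie far above the line, and Lbhd2, Zic1 and Gnas lie far below it.

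Among genes at 1 UMI per 10000 or more in the higher region and with 1 direction in all 5 mice, the 12 with the largest CP excess were Ppp1r1b, Scn4b, Tac1, Adora2a, Syndig1l, Penk, Rgs9, Rgs4, Nexn, Lpl, Pde10a and Cacna2d3, with log2 differences from 5.11 down to 4.15. Of these, Ppp1r1b served to choose the CP discs. Scn4b (chr9:45138624-45154155 in GRCm38.p6), the sodium channel beta-4 subunit, measured 5.38, 4.31, 4.36, 6.04 and 4.39 in the CP and 0.203, 0, 0.172, 0.207 and 0.148 in the LSX. Its log2 difference was 4.85 ± 0.26 (SE, adjusted p = 2.01e-07), and the LSX of mouse 784 had no UMI. Rgs9, a regulator that shortens G protein signals, measured 5.85, 6.04, 5.75, 6.29 and 5.51 in the CP against 0.174, 0.279, 0.209, 0.125 and 0.207 in the LSX (log2 difference 4.61 ± 0.13, adjusted p = 1.84e-09). Its relative Rgs4 differed by nearly as much (7.18 ± 0.252 against 0.27 ± 0.0952, mean ± SD, n = 5 mice). Pde10a, a phosphodiesterase that breaks down cyclic nucleotides in medium spiny neurons, averaged 6.13 ± 0.908 in the CP and 0.303 ± 0.128 in the LSX (log2 difference 4.22 ± 0.18). Lpl, lipoprotein lipase, averaged 1.04 ± 0.144 in the CP and had 3 UMIs over all 5 LSX columns, so that its fitted difference of 4.3 depends on the constant added.

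Of the 18 genes marking projection neurons of both pathways, 17 were higher in the CP and none in the LSX, with a median log2 difference of 2.86 against -0.06 over all genes. The 17 include Ppp1r1b, by which CP discs were chosen, with a CP level of 22.4 to 25.9. The list was made with earlier results of these data known. Its count is therefore not an independent check of the region labels. Tmem158 did not pass the test (6.51 ± 1.14 in the CP, 5.26 ± 1.18 in the LSX). Rasgrp2, an exchange factor for Rap, averaged 2.76 ± 0.216 against 0.14 ± 0.0815, a log2 difference of 4.08. Arpp21, a cAMP-regulated phosphoprotein, was higher by 3.77 on the log2 scale. Summed over the 18 genes, Ppp1r1b included, the level ran from 109 to 132 in the CP and from 16.6 to 25 in the LSX. The ranges did not overlap. The white matter of the same mice had 9.07 to 13.7.

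Markers of both output pathways were higher in the CP. Of 6 tested direct-pathway genes, Tac1, Drd1, Pdyn and Ebf1 were higher in the CP, Sfxn1 did not pass and Isl1 was slightly higher in the LSX. Tac1, the precursor of substance P (chr6:7555061-7562978), measured 5.99, 8.54, 7.18, 5.96 and 7.47 in the CP and 0.174, 0.372, 0.295, 0.162 and 0.158 in the LSX (log2 difference 4.7 ± 0.13, adjusted p = 1.23e-09). The lowest CP value was above the highest LSX value. Ebf1, a transcription factor of direct-pathway neurons, averaged 0.209 ± 0.0786 against 0.0175 ± 0.0231. Isl1, which helps specify direct-pathway neurons, averaged 0.306 ± 0.035 in the CP and 0.43 ± 0.0514 in the LSX (log2 difference -0.43, adjusted p = 0.0441), a call that was lost under TMM scaling. Without mouse 784 the list had 2 LSX calls.

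Of 6 tested indirect-pathway genes, Adora2a, Penk, Gpr6 and Drd2 were higher in the CP, Ptprm did not pass and Sp9 was higher in the LSX. Adora2a (chr10:75316877-75334792) measured 2.39, 1.77, 1.86, 2.65 and 1.36 in the CP and 0.0579, 0, 0.0368, 0.0738 and 0.00985 in the LSX (log2 difference 4.63 ± 0.16, adjusted p = 6.81e-09). The dopamine receptors were not equally far apart. Drd2, the D2 receptor, measured 2.14, 1.89, 1.87, 2.13 and 1.6 in the CP and 0.319, 0.372, 0.442, 0.369 and 0.424 in the LSX, so that the LSX kept a low level in every mouse. Its log2 difference of 2.18 ± 0.13 was below the 4.01 ± 0.18 of Drd1 in each of the 5 mice. Gpr6, a constitutively active receptor of indirect-pathway neurons, averaged 1.32 ± 0.104 against 0.0944 ± 0.0547. The adenosine A1 receptor Adora1 was also higher in the CP, by 1.48 ± 0.16, so that all 4 tested genes of the dopamine and adenosine receptor list (Drd1, Drd2, Adora1, Adora2a) were called in this direction. The other 4 listed receptors (Drd3, Drd4, Drd5 and Adora2b) fell below the filter on low levels.

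**Figure D2:**
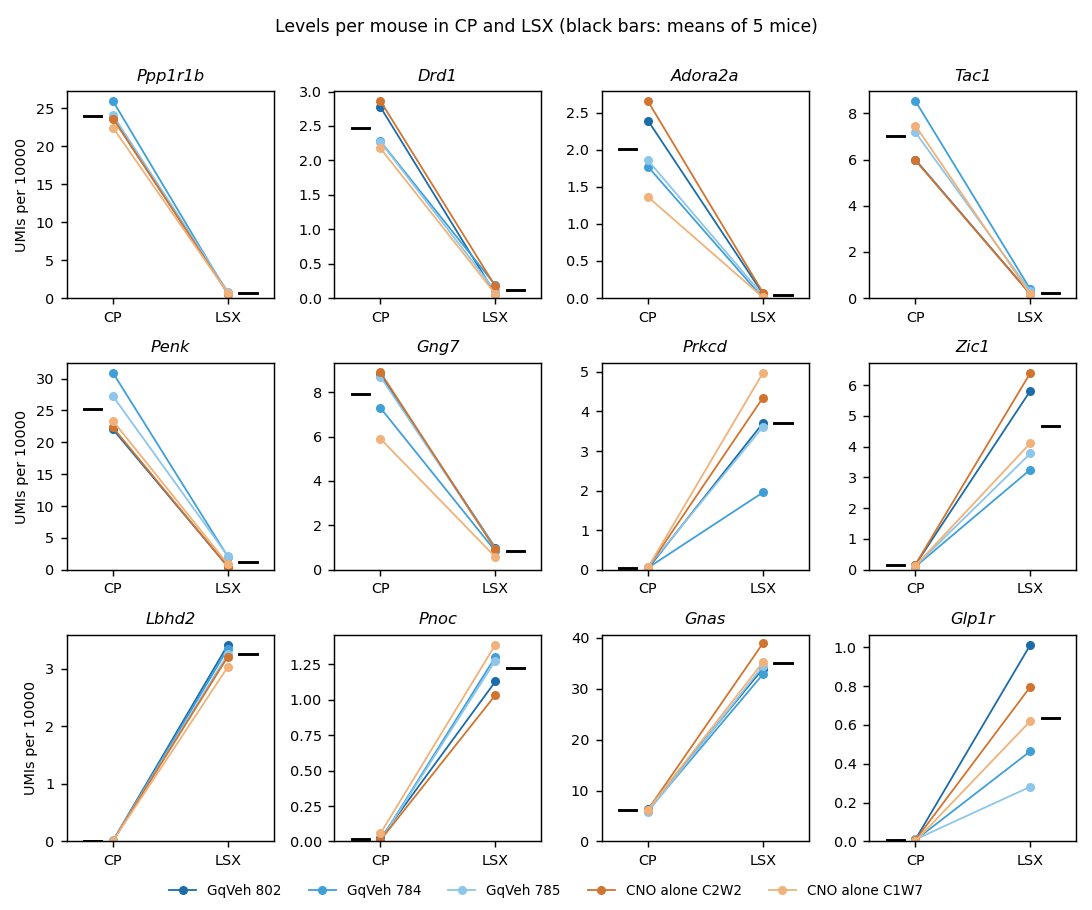
Levels of 12 genes in UMIs per 10000 in the CP and LSX of each control mouse. Lines join the regions of a mouse (blue, 3 GqVeh mice; orange, 2 CNO alone mice), and black bars are means of 5 mice. In each panel all 5 lines run the same way and the values of the regions do not overlap. Ppp1r1b and Prkcd served to choose the discs.

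By the same rule, the 12 genes with the largest LSX excess were Lbhd2, Prkcd, Zic1, Rasd1, Ngb, Pnoc, Zic5, Zic4, Dlx1, Nbl1, C130074G19Rik and Slc8a1, with log2 differences from -5.72 to -3.61. Of these, Zic1, Zic4, Zic5 and Dlx1 encode transcription factors, and Prkcd served to choose the LSX discs. Lbhd2 (chr12:111402049-111412092), a gene of little-known function, measured 3.42, 3.35, 3.25, 3.21 and 3.03 in the LSX and 0.0128, 0.00627, 0.0174, 0.0133 and 0.0132 in the CP. Its LSX level hardly varied between mice (3.25 ± 0.147, mean ± SD, n = 5), and its difference was -5.72 ± 0.13 (adjusted p = 6.7e-10). The ratio of means was 259, and the difference depends on the 0.05 added, which exceeds every CP value of the gene. Rasd1, Ngb and Pnoc also averaged under 0.05 in the CP. Ngb, neuroglobin, a haem protein of some neurons, averaged 1.28 ± 0.387 in the LSX and 0.0134 ± 0.0092 in the CP. Slc8a1, a sodium-calcium exchanger, measured 4.95, 1.21, 2.09, 3.62 and 2.7 in the LSX and 0.242, 0.109, 0.137, 0.243 and 0.147 in the CP. Its levels spread over mice in both regions, and the LSX was higher in every mouse. Nbl1, a secreted antagonist of BMP signals, averaged 2.47 ± 0.459 against 0.128 ± 0.0191. Rasd1, a small Ras-like protein induced by dexamethasone, averaged 1.67 ± 0.536 against 0.0259 ± 0.0108.

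Of 12 tested genes in a list of lateral septal neurons, 11 were higher in the LSX and none in the CP (median log2 difference -2.54). LSX discs were chosen by Prkcd, and the list was made with earlier results of these data known. Its count is therefore not an independent check of the region labels. Zic1 measured 5.82, 3.26, 3.78, 6.4 and 4.12 in the LSX and 0.164, 0.104, 0.123, 0.171 and 0.132 in the CP (log2 difference -4.61 ± 0.11, adjusted p = 6.7e-10). Trpc4, a cation channel opened downstream of phospholipase C, averaged 0.936 ± 0.127 against 0.033 ± 0.00271, and Dgkg, a diacylglycerol kinase, 1.41 ± 0.481 against 0.103 ± 0.0414. Crhr2, the receptor for urocortins, averaged 0.26 ± 0.183 in the LSX and 0.0132 ± 0.0101 in the CP. Met, a receptor tyrosine kinase, averaged 0.205 ± 0.138 in the LSX and was near 0 in the CP, with 4 UMIs over all CP columns. Sst was the gene that did not pass. Esr1, Avpr1a and Oxtr, which encode hormone receptors of the septum, were under the filter and were not tested.

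Peptide precursors divided between the regions. Of 16 tested, 7 were higher in the CP (Tac1, Penk, Npy, Pdyn, Pthlh, Cck and Scg2), 6 in the LSX (Pnoc, Nts, Cartpt, Chga, Chgb and Vgf) and 3 did not pass (Sst, Nucb2 and Pomc). Under TMM scaling 7 were called in the CP and 4 in the LSX. The opioid family itself split. Penk, the enkephalin precursor (chr4:4133536-4138815), measured 22.0, 30.9, 27.2, 22.3 and 23.4 in the CP and 0.492, 2.05, 2.14, 0.443 and 0.867 in the LSX (log2 difference 4.61 ± 0.24, adjusted p = 1.3e-07). Pdyn, the dynorphin precursor, measured 1.65, 1.93, 1.68, 1.67 and 1.43 in the CP and 0.0869, 0.279, 0.11, 0.155 and 0.246 in the LSX (3.01 ± 0.19). Pnoc, the nociceptin precursor (chr14:65400673-65425564), ran the other way, with 1.13, 1.3, 1.28, 1.03 and 1.39 in the LSX and 0.0213, 0.00878, 0.00521, 0.00949 and 0.0572 in the CP (-4.22 ± 0.18, adjusted p = 3.33e-08). None of the 3 genes had overlapping regions. Oprl1, the nociceptin receptor, was also higher in the LSX (0.558 ± 0.105 against 0.155 ± 0.0144), and Oprk1, the receptor for dynorphin, in the CP (0.165 ± 0.0356 against 0.0584 ± 0.0738).

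Nts, the neurotensin precursor, measured 1.33, 3.82, 1.78, 0.436 and 0.424 in the LSX and 0.102, 0.153, 0.115, 0.11 and 0.275 in the CP. The LSX was higher in every mouse (-2.61 ± 0.43, adjusted p = 0.000789). Both CNO alone mice had the lowest LSX values. Cartpt, which encodes the CART peptide, measured 0.0869, 1.12, 0.552, 0.096 and 0.0493 in the LSX and 0.0489, 0.0527, 0.0521, 0.0512 and 0.044 in the CP, so that mice 784 and 785 stood above the rest and mouse C1W7 was within the CP range (adjusted p = 0.0329). Sst, the somatostatin precursor, measured 5.98, 6.06, 6.41, 5.55 and 9.04 in the CP and 7.65, 9.4, 7.09, 5.12 and 5.48 in the LSX, and the regions overlapped. Its difference was -0.06, with a 95% confidence interval from -0.39 to 0.28 (adjusted p = 0.805). Its receptors Sstr2 and Sstr3 were higher in the LSX, with log2 differences of -1.23 and -1.38. Npy, neuropeptide Y, averaged 1.89 ± 0.506 in the CP and 0.0902 ± 0.0478 in the LSX (3.81 ± 0.20).

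The start regions of 4 of these peptide genes are printed because the genes differ in direction, and that of Zic1 as a leading LSX gene. Each run is the RefSeq window of GRCm38.p6 from 250 bases before to 50 bases after 1 annotated start, on the gene's own strand. For Tac1, Nts and Zic1 that start is the outer end of the gene's annotated span, whereas the spans of Cartpt and Sst reach further upstream, so that their windows lie at an inner start. Capitals mark the cyclic AMP response element (CRE, TGACGTCA), the AP-1 site (TGACTCA) and the GC box (GGGCGG), searched on both strands. Among 32851 such windows, 1.79% held the CRE, 5.2% the AP-1 site and 35.7% the GC box.
Tac1, higher in the CP, chr6:7554811-7555110, plus strand: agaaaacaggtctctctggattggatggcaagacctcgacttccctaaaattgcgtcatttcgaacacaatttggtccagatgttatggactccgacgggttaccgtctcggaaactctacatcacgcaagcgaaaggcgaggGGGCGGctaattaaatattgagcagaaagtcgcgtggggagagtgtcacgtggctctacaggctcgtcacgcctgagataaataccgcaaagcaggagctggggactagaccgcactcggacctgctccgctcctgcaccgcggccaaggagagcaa
Nts, higher in the LSX, chr10:102490369-102490668, minus strand: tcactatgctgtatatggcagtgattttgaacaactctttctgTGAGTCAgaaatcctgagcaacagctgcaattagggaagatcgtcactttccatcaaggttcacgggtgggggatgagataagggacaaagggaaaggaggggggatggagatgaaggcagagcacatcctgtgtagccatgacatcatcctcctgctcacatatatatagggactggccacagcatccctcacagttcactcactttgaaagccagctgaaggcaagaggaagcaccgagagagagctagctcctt
Cartpt, higher in the LSX, chr13:99900634-99900933, minus strand: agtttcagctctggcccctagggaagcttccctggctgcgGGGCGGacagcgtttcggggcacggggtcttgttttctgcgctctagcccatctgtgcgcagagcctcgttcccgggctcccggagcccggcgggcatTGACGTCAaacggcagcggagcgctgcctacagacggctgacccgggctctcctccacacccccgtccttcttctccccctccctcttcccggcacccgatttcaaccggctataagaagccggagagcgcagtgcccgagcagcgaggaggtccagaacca
Sst, no call, chr16:23890795-23891094, minus strand: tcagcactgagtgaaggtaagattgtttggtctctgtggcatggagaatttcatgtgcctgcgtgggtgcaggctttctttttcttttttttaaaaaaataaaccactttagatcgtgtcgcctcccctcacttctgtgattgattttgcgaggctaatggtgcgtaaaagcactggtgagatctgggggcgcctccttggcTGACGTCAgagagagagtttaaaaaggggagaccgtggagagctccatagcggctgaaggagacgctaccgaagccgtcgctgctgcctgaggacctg
Zic1, higher in the LSX, chr9:91365719-91366018, minus strand: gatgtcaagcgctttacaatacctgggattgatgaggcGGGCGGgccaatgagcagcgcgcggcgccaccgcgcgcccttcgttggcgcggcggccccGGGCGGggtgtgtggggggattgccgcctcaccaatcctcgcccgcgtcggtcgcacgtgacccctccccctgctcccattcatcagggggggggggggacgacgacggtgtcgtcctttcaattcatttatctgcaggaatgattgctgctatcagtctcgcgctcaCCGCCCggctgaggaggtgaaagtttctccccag

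Cartpt and Sst each held 1 CRE, Cartpt with 1 GC box, Nts held 1 AP-1 site, and Tac1 held 1 GC box and neither of the other motifs. A match describes letters in this window and not a bound site. The Zic1 window held 3 GC boxes. The annotated spans of Zic1 (chr9:91358058-91365768) and Zic4 (chr9:91365631-91389351) overlap at their ends. Zic4 averaged 1.07 ± 0.324 in the LSX and 0.0195 ± 0.00764 in the CP (-3.97 ± 0.18). Zic5 and Zic2 were called in this direction too. Zic5 averaged 1.27 ± 0.617 against 0.0221 ± 0.00976. Zic2 had 4 UMIs over all CP columns and 0.463, 0, 0.245, 0.436 and 0.384 in the LSX, where mouse 784 had none.

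Of 30 tested genes of cyclic AMP signalling, 19 were higher in the CP and 7 in the LSX (median 0.65). The LSX count was little above the 18.7% over all genes, and the CP count well above the 12.8%. The 19 include Ppp1r1b, by which CP discs were chosen. Besides Ppp1r1b, Rgs9, Rgs4, Pde10a and Arpp21 these included Adcy5, the main adenylyl cyclase of medium spiny neurons, which averaged 6.62 ± 0.941 in the CP and 1.17 ± 0.215 in the LSX (2.46 ± 0.08). Gng7, the G protein gamma subunit that partners with the olfactory-type alpha subunit there, measured 8.79, 7.29, 8.7, 8.89 and 5.9 in the CP and 0.985, 0.838, 0.957, 0.915 and 0.571 in the LSX (3.15 ± 0.08, adjusted p = 6.7e-10). Pde1b, a calcium-dependent phosphodiesterase, was higher by 3.43 and Arpp19, an inhibitor of a protein phosphatase, by 2.81. The alpha subunits that stimulate adenylyl cyclase differed in direction. Gnal, which encodes the olfactory type, averaged 3.82 ± 0.889 in the CP and 1.92 ± 0.572 in the LSX (1.0 ± 0.09). Gnas, which encodes the general type, measured 6.43, 6.05, 5.81, 6.24 and 6.24 in the CP and 34.0, 32.8, 34.5, 38.9 and 35.2 in the LSX (-2.5 ± 0.06, adjusted p = 8.32e-10). The Gnas locus also makes other transcripts, and these UMIs were not separated by transcript. The other LSX calls were Adcy8, Prkar1b, Pde1a, Prkaca, Prkar1a and Gnb1, with log2 differences of -1.02 for Prkar1b and -0.80 for Prkaca, a catalytic subunit of protein kinase A.

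Calcium and diacylglycerol genes were called in both directions, with 24 of 45 tested higher in the CP and 14 in the LSX (median 0.43). The shares over all genes were 12.8% and 18.7%, and the 14 include Prkcd, by which LSX discs were chosen. Itpr1, the calcium release channel opened by inositol trisphosphate, measured 5.51, 4.49, 4.65, 5.4 and 4.48 in the CP and 0.521, 0.372, 0.601, 0.849 and 0.65 in the LSX (2.97 ± 0.13, adjusted p = 3.33e-08). Nrgn, neurogranin, a calmodulin store of dendrites, averaged 47.7 ± 5.1 against 15.2 ± 1.5. Hpca, hippocalcin, averaged 22.4 ± 1.89 against 3.79 ± 0.93, whereas the related calcium sensor Ncald averaged 0.445 ± 0.0953 in the CP and 3.85 ± 1.0 in the LSX. Pcp4l1 averaged 9.03 ± 0.684 in the CP against 1.2 ± 0.606 in the LSX. The main subunits of calcium/calmodulin kinase II also parted, Camk2b being higher in the CP by 1.0 ± 0.09 and Camk2a higher in the LSX (-0.81 ± 0.09). Camk2a was below its LSX level in each mouse, although the ranges over mice overlapped (7.05, 3.4, 4.47, 7.41 and 3.24 in the CP, 12.9, 5.96, 7.17, 11.1 and 7.27 in the LSX).

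Receptors showed relatives on opposite sides. Of 16 tested receptors for serotonin, noradrenaline, acetylcholine, histamine and cannabinoids, 7 were higher in the CP and 6 in the LSX. All tested genes gave 12.8% and 18.7%. Adra2c, an alpha-2 adrenergic receptor, averaged 0.895 ± 0.0881 in the CP and 0.136 ± 0.0489 in the LSX (2.38 ± 0.20), whereas Adra2a averaged 0.0106 ± 0.00573 and 0.557 ± 0.134 (-3.3 ± 0.20). Chrm1, the M1 muscarinic receptor, measured 1.45, 1.35, 1.23, 1.35 and 1.06 in the CP and 0.0869, 0.465, 0.209, 0.281 and 0.197 in the LSX, while Chrm2 and Chrm3 were higher in the LSX (log2 differences -0.94 and -1.23), Chrm2 in 4 of 5 mice. Htr1b and Htr1d, serotonin receptors often found on axon terminals, were higher in the CP by 1.15 and 1.79. Htr7 averaged 0.252 ± 0.041 in the LSX against 0.0142 ± 0.00727 in the CP, and Htr1a, with no LSX UMI in mouse 784, 0.156 ± 0.102 against 0.0095 ± 0.00209. Cnr1, the cannabinoid receptor, was higher in the CP by 1.2 ± 0.18.

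Peptide receptors leaned to the LSX, with 9 of 16 tested higher there and 4 in the CP (median -1.0), and the counts were the same under TMM scaling. Glp1r, the receptor for glucagon-like peptide 1, measured 1.01, 0.465, 0.282, 0.797 and 0.621 in the LSX and 0.0106, 0.00752, 0.0104, 0.00759 and 0.0022 in the CP (-3.46 ± 0.25, adjusted p = 2.14e-06). Adcyap1r1, the receptor for PACAP, averaged 1.16 ± 0.198 against 0.35 ± 0.0743. The CP genes were Mchr1, Tacr1, Gpr83 and Oprk1. Mchr1, the receptor for melanin-concentrating hormone, averaged 0.373 ± 0.0508 against 0.0587 ± 0.042, and Tacr1, the receptor for substance P, 0.208 ± 0.0221 against 0.0465 ± 0.0414. Another 21 listed peptide receptors, among them Oprm1 and Oxtr, were under the filter.

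Inhibitory receptor subunits differed by type. Of 15 tested GABA and glycine receptor subunits, Gabrd and Gabra4 were higher in the CP, a share close to that over all genes, and 8 were higher in the LSX (6 under TMM scaling). Gabrd, the delta subunit of extrasynaptic GABA-A receptors, measured 2.17, 2.56, 2.4, 2.18 and 2.2 in the CP and 0.116, 0.372, 0.11, 0.155 and 0.197 in the LSX (3.39 ± 0.17, adjusted p = 1.3e-07). Gabra4, an alpha subunit that commonly pairs with delta, averaged 1.58 ± 0.171 against 0.614 ± 0.263. On the LSX side Gabra3 averaged 0.666 ± 0.113 against 0.107 ± 0.0201, Gabrg1 0.682 ± 0.199 against 0.147 ± 0.0238 and the glycine receptor subunit Glra2 0.561 ± 0.268 against 0.0634 ± 0.00793. Among 23 tested glutamate receptor subunits, 6 were higher in the CP and 8 in the LSX, against 12.8% and 18.7% over all genes. Under TMM scaling the counts were 7 and 6, and the median of -0.16 became 0.02. Gria1, an AMPA receptor subunit, averaged 4.96 ± 1.26 in the LSX and 2.41 ± 0.512 in the CP (-1.01 ± 0.08), and Grin2d, an NMDA receptor subunit, 0.27 ± 0.0602 against 0.0372 ± 0.00275.

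Of 48 tested potassium channel genes, 23 were higher in the CP, above the 12.8% over all genes, and 9 in the LSX, close to the 18.7% over all genes (median 0.51, 24 and 6 under TMM scaling). Kcnj4 and Kcnj2 encode inward rectifiers of the Kir2 type, which hold medium spiny neurons at a negative resting potential. Kcnj4 measured 1.34, 1.27, 1.16, 1.55 and 1.2 in the CP and 0, 0.0931, 0.0736, 0.0886 and 0.0493 in the LSX (3.69 ± 0.22, adjusted p = 4.47e-07). Kcnj2 averaged 0.228 ± 0.032 against 0.00983 ± 0.0104, whereas Kcnj3, which encodes a channel opened by G proteins, averaged 0.0953 ± 0.0259 in the CP and 0.624 ± 0.269 in the LSX. Kcnd2, an A-type channel, was higher in the CP by 1.77 and its relative Kcnd3 higher in the LSX (log2 difference -1.18). Kcnip1, an auxiliary subunit of A-type channels, averaged 0.894 ± 0.198 in the LSX against 0.0783 ± 0.0138.

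Of 41 tested sodium, calcium, HCN and TRP channel genes, 19 were higher in the CP and 10 in the LSX. The CP count was well above the 12.8% over all genes and the LSX count little above the 18.7%. Cacna2d3, an auxiliary calcium channel subunit, averaged 1.87 ± 0.15 against 0.0678 ± 0.0465, while its relative Cacna2d2 was higher in the LSX. The pore subunits of T-type calcium channels parted, with Cacna1h higher in the CP by 1.21, Cacna1i by 1.99 and Cacna1g higher in the LSX (log2 difference -2.25).

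**Figure D3:**
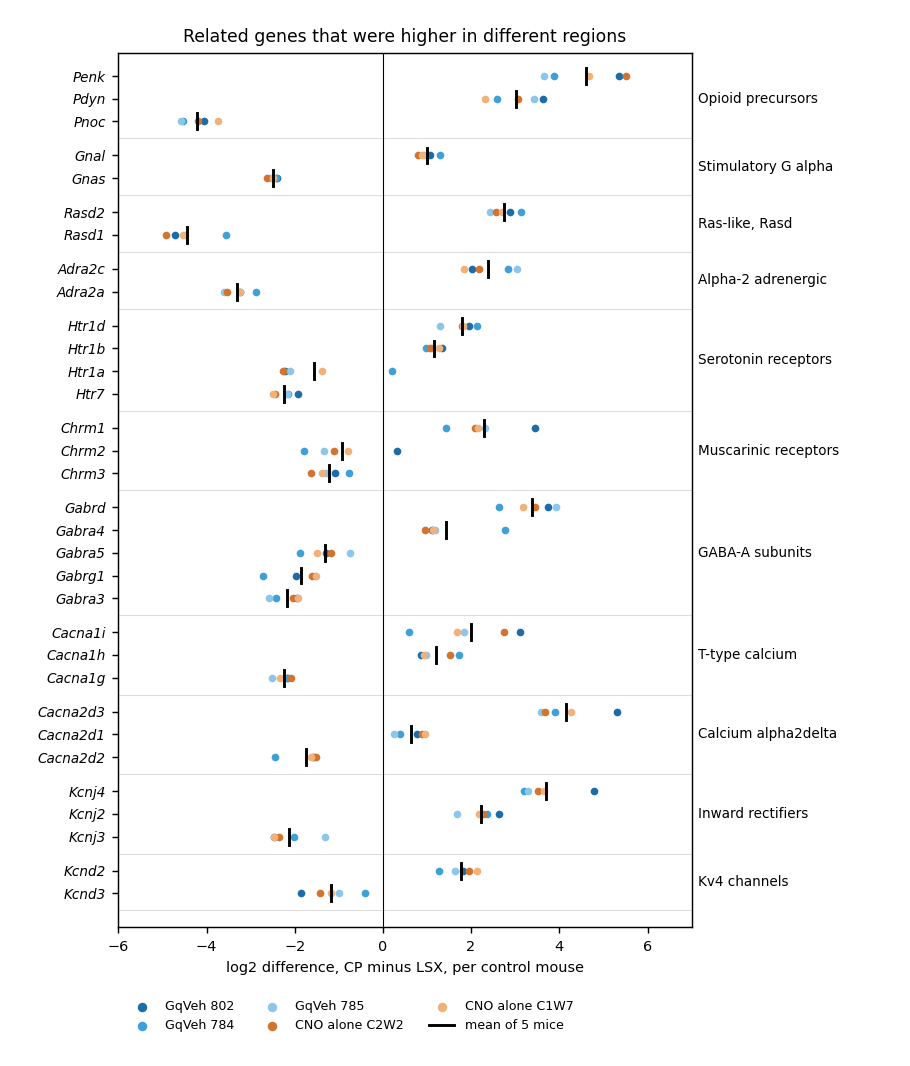
Log2 difference (CP minus LSX) of 32 genes from 11 families in each of 5 control mice, with 1 dot per mouse (blue, GqVeh; orange, CNO alone) and a black bar for the mean. The families were chosen after their values were seen, as ones with members on either side of 0. All genes but Htr1a and Chrm2 keep their 5 dots on a single side of 0, as with Penk and Pnoc or Gnal and Gnas.

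Transcription factors of the forebrain were called in both directions, with 19 of 47 tested higher in the CP and 21 in the LSX. Foxp1, a factor of medium spiny neurons, measured 6.9, 3.08, 4.08, 7.09 and 3.3 in the CP and 0.869, 0.558, 0.466, 0.694 and 0.473 in the LSX (2.85 ± 0.12, adjusted p = 3.33e-08). Mice 802 and C2W2, which shared an array, had the highest CP values. Foxp2 averaged 0.839 ± 0.307 against 0.121 ± 0.0606, and Bcl11b, which shapes medium spiny neuron maturation, 3.13 ± 1.06 against 0.622 ± 0.209. Dlx1, a homeobox gene of forebrain GABAergic lineages, measured 1.45, 0.838, 0.921, 1.58 and 0.956 in the LSX and 0.0404, 0.0238, 0.0347, 0.019 and 0.033 in the CP (-3.86 ± 0.19). Dlx2, Dlx5, Dlx6 and Sp8 were called in the same direction. Sp9, listed with the indirect pathway, averaged 0.825 ± 0.281 in the LSX against 0.242 ± 0.029 in the CP.

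Of 17 tested genes of steroid, thyroid and retinoid signalling, 8 were higher in the CP and 3 in the LSX. Over all genes the shares were 12.8% and 18.7%, so that the LSX count was close to its share. Rxrg, a retinoid X receptor, measured 2.41, 2.48, 2.35, 1.84 and 2.12 in the CP and 0.145, 0, 0.147, 0.0738 and 0.118 in the LSX (4.11 ± 0.27, adjusted p = 7.51e-07). Rarb, a retinoic acid receptor, averaged 1.11 ± 0.126 against 0.0661 ± 0.0258. Crym, a protein that binds thyroid hormone, averaged 2.69 ± 0.483 against 0.223 ± 0.166. Crabp1, a carrier of retinoic acid, measured 0.217, 0.259, 0.259, 0.29 and 0.308 in the CP and had 2 UMIs in the LSX, both in mouse C2W2.

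Of 43 tested ephrin, semaphorin, slit and netrin genes, 11 were higher in the CP and 14 in the LSX. The shares over all genes, 12.8% and 18.7%, were lower. Plxnd1, the receptor for semaphorin 3E, averaged 0.715 ± 0.132 in the CP against 0.0766 ± 0.0625, and Sema3e itself 0.268 ± 0.0696 against 0.0244 ± 0.0218. Slit1, a repulsive ligand, averaged 0.684 ± 0.154 in the LSX against 0.0445 ± 0.0143, and Robo2, a slit receptor, was higher in the CP (0.803 ± 0.173 against 0.114 ± 0.0528). Of 48 tested cadherins and adhesion molecules, 6 were higher in the CP, close to the 12.8% over all genes, and 18 in the LSX, above the 18.7% over all genes (7 and 13 under TMM scaling). Pcdh8, a protocadherin, averaged 1.14 ± 0.16 in the LSX and 0.0576 ± 0.00784 in the CP (-3.46 ± 0.15), and Cdh9 0.251 ± 0.0214 in the CP against 0.0234 ± 0.0248.

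Of 5 tested genes that make, pack or clear GABA, 4 were higher in the LSX and none in the CP (median -0.74), with the same counts under TMM scaling. Gad1, which makes GABA, measured 8.98, 8.56, 7.84, 9.29 and 7.97 in the LSX and 5.38, 5.46, 5.0, 4.94 and 4.2 in the CP (-0.77 ± 0.07, adjusted p = 1.23e-05). Slc32a1, the vesicular GABA transporter, averaged 4.27 ± 0.317 against 2.54 ± 0.254. Of 39 tested genes of synaptic vesicle release, 10 were higher in the CP and 16 in the LSX, counts that became 12 and 9 under TMM scaling. The counts of 10 and 16 stand against shares of 12.8% and 18.7% over all genes. Syp, synaptophysin, measured 8.8, 10.5, 10.7, 9.64 and 10.0 in the LSX and 3.51, 3.86, 3.62, 4.04 and 3.61 in the CP (-1.4 ± 0.07), whereas the related Synpr averaged 1.39 ± 0.17 in the CP and 0.439 ± 0.153 in the LSX. Unc13c, a priming factor, averaged 1.6 ± 0.546 against 0.218 ± 0.108.

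Immediate-early genes, which neurons switch on within minutes of activity, were called in both directions. Of 22 tested, 11 were higher in the CP, and Fos and Jun were higher in the LSX. The shares over all genes were 12.8% and 18.7%. The other 9 did not pass, among them Npas4, Egr4, Btg2 and Ier2. The LSX count was 0 under TMM scaling, 4 with edgeR and 5 without mouse 784. Whether activity differed between the regions was not tested. Homer1, a scaffold with an activity-induced form, averaged 1.94 ± 0.471 against 0.78 ± 0.413 (1.39 ± 0.17). Nr4a1, an orphan nuclear receptor, measured 1.08, 0.554, 0.592, 0.313 and 0.588 in the CP and 0.319, 0.0931, 0.0736, 0.125 and 0.138 in the LSX, higher in the CP of each mouse although the ranges overlapped. Egr1 was higher by 0.60 and Junb by 0.38. Arc, a marker of recent activity, averaged 0.552 ± 0.249 in the CP and 0.617 ± 0.212 in the LSX and did not pass (adjusted p = 0.395).

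**Figure D4:**
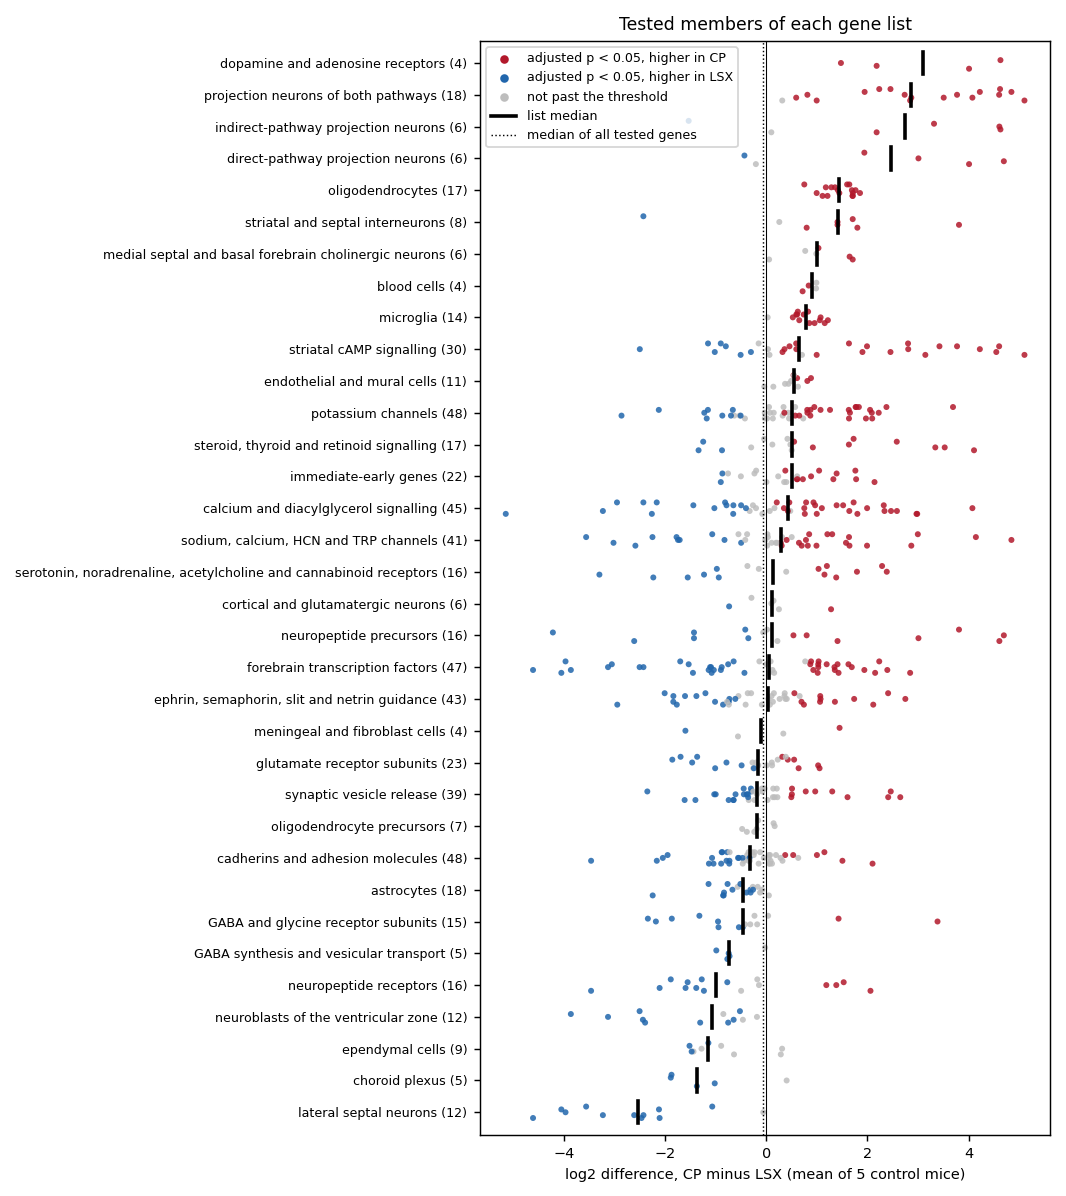
Log2 difference (CP minus LSX, mean of 5 control mice) of each tested member of 34 gene lists, with the number tested in brackets. Points are red or blue where the adjusted p was under 0.05, black bars are list medians and the dotted line is the median of all 11097 genes, -0.06. The lists run from dopamine and adenosine receptors (median 3.10) down to lateral septal neurons (median -2.54), and many lists in between hold members of both colours.

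Of 8 tested interneuron markers, 6 were higher in the CP, and the shares over all genes were 12.8% and 18.7%. Calb2, calretinin, was higher in the LSX (0.414 ± 0.237 against 0.0251 ± 0.0121). The listed genes Vip, Trh, Chodl and Tac3 were not tested. Sst was counted with the lateral septal list and not here, and it did not pass. Pvalb, parvalbumin, averaged 0.345 ± 0.0407 in the CP and 0.0719 ± 0.0452 in the LSX. Nos1 did not pass (0.196 ± 0.0662 and 0.162 ± 0.0783). Genes of cholinergic neurons, which occupy the medial septum next to the LSX as well as the striatum, were higher in the CP in 3 of 6 cases and never in the LSX. Chat, which makes acetylcholine, averaged 0.235 ± 0.0387 against 0.0416 ± 0.0351. Markers of cortical and glutamatergic neurons gave 1 call in each direction among 6 tested (2 in the CP without mouse 784). Each count is near its share over all genes (12.8% and 18.7%). Slc17a7, the vesicular glutamate transporter, measured 0.312, 0.128, 0.134, 0.459 and 0.167 in the CP, 0.232, 0.186, 0.0736, 0.325 and 0.128 in the LSX and on average 3.22 in white matter discs.

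Glial genes moved with region as well. All 17 tested oligodendrocyte genes, among them Mbp, by which white matter discs were chosen, were higher in the CP (median 1.45). The CP is crossed by fibre bundles. Their summed level was 66.9 to 95 in the CP, 12.9 to 42.2 in the LSX and 502 to 1004 in white matter. Mobp, a myelin protein gene, measured 8.66, 5.67, 6.18, 8.59 and 7.31 in the CP and 0.84, 1.77, 2.7, 2.78 and 3.39 in the LSX, with mouse 802 lowest in the LSX and no overlap. Apod, a lipid carrier of oligodendrocytes, averaged 2.79 ± 0.292 against 0.916 ± 0.475. None of 7 tested oligodendrocyte precursor genes was called by limma, 0 had an unadjusted p under 0.05, and 1 was called as higher in the LSX by edgeR or without mouse 784. Of 14 tested microglia genes, 13 were higher in the CP (median 0.78, summed level 6.64 to 7.92 in the CP and 3.16 to 5.42 in the LSX), and 7 were called when CP counts were thinned to the depth of the LSX. C1qa, a complement subunit, averaged 0.822 ± 0.0949 against 0.437 ± 0.0866. P2ry12 and Aif1 of this list served to leave discs out.

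Astrocyte genes ran the other way, with 12 of 18 tested higher in the LSX and none in the CP (median -0.45, 6 calls under TMM scaling). Slc1a3, a glutamate transporter, measured 5.76, 3.72, 3.98, 5.96 and 4.77 in the LSX and 2.55, 1.79, 2.06, 2.31 and 2.0 in the CP (-1.14 ± 0.08). Gja1, an astrocyte gap junction protein, averaged 1.19 ± 0.104 against 0.644 ± 0.0937. Gfap averaged 1.02 ± 0.431 in the LSX and 0.16 ± 0.0213 in the CP after discs high in it had been left out. The astrocyte genes summed to 82.5 to 96.1 in the LSX and 64.6 to 71.0 in the CP.

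Genes of cells that line the lateral ventricle or lie within it were measured too. Of 12 tested genes of ventricular-zone neuroblasts, 9 were higher in the LSX (median -1.08). They summed to 19.5 to 26.2 in the LSX, 6.11 to 6.97 in the CP and 4.70 to 9.88 in white matter, although Stmn2, Tubb3, Nnat and the Dlx genes are also expressed by mature neurons. Stmn2, a microtubule regulator, measured 6.95, 7.07, 7.68, 7.85 and 7.69 in the LSX and 1.38, 1.27, 1.38, 1.45 and 1.39 in the CP. Dcx, the defining neuroblast gene, averaged 0.217 ± 0.0537 against 0.0567 ± 0.0144. Of 9 tested ependymal genes 3 were higher in the LSX and none in the CP (2 in the CP without mouse 784). The shares over all genes were 18.7% and 12.8%. With edgeR 5 were higher in the LSX and 1 in the CP. The sum of the ependymal genes ran from 0.773 to 6.89 in the LSX, with a median of 1.11, and from 0.920 to 7.83 in white matter. Tmem212, a defining ependymal gene, measured 0.145, 0.931, 0.0245, 0.0517 and 0.00985 in the LSX, with mouse 784 highest. Of 5 tested choroid plexus genes, which summed to 1.02 to 8.24 in the LSX and 5.90 to 32.8 in white matter, 4 were higher in the LSX. Ttr, the most abundant of them in choroid plexus, measured 3.56, 0.186, 0.11, 6.02 and 0.286 in the LSX and 0.908, 0.0301, 0.0504, 2.64 and 0.066 in the CP, high in mice 802 and C2W2 in both regions. The part of ependymal, choroid plexus or neuroblast RNA in the LSX values of other genes was not tested.

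**Figure D5:**
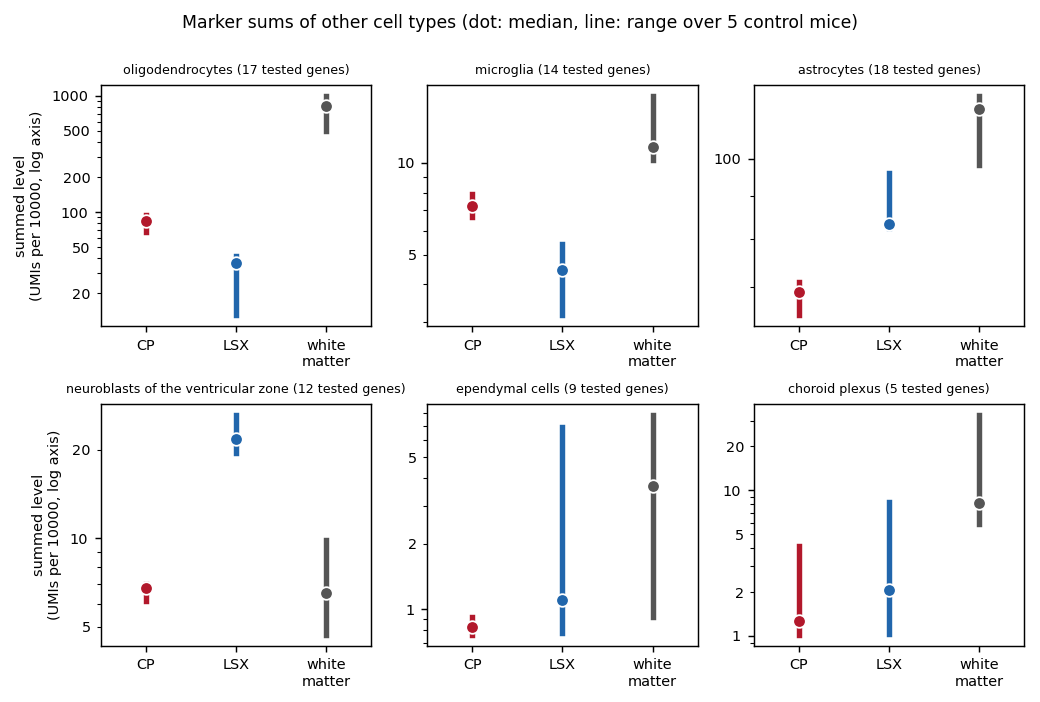
Summed level of the tested markers of 6 other cell types in UMIs per 10000, on log axes, in the CP, LSX and white matter of 5 control mice. Dots are medians and lines run from the lowest to the highest mouse. Oligodendrocyte and microglia sums were higher in the CP than in the LSX, astrocyte and neuroblast sums higher in the LSX, and ependymal and choroid plexus sums overlapped between the regions.

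The difference between the regions was next set between the control groups. At an adjusted p under 0.05 no gene of 11097 had a CP minus LSX difference that differed between the 3 GqVeh and the 2 CNO alone mice in limma. In the respective directions 145 and 82 genes had an unadjusted p under 0.05, fewer than that threshold gives by chance over 11097 genes. With 3 mice against 2, the lack of a call does not show that the groups were alike. Pcp4l1 and Nts had the smallest p. For Nts the log2 differences were -3.18, -4.25, -3.47, -1.6 and -0.54, so that the GqVeh mice were lower than both CNO alone mice (adjusted p = 0.462 for the difference between groups). When mouse 784 was left out, Nts (adjusted p = 0.00566) and Pcp4l1 (adjusted p = 0.0071) were called, and without mouse 785 there was 1 call.

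The same comparison was made in the 3 GqCNO mice, in which the midbrain dopamine neurons carrying hM3Dq were exposed to CNO. Of 11014 genes tested there, 612 (5.56%) were higher in the CP and 714 (6.48%) in the LSX. Mouse 804 had 7 LSX discs, and without it the counts were 1422 and 1970, and without mouse 801 they were 579 and 471. Of the 3489 genes called in the controls, 3424 were tested in GqCNO mice, 3261 had the same sign there and 1265 were also called. Drd1 differed by 4.5 in GqCNO mice, Penk by 3.97, Zic1 by -4.58, Gnas by -2.3 and Pnoc by -3.7 on the log2 scale. Whether the difference between the regions changed with the treatment was not tested here.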

How the data were processed

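Levels were measured with 10x Visium in 2 arrays, 1 section per mouse. Per the labels and methods, the authors ran Space Ranger (version not given in the sources used here) on mm10 and exported, per region, the mean signal over discs drawn in Loupe Browser. The deposited signal is UMI counts divided by 1 factor per column, and whole UMIs were recovered from it for 100% of values under 200 steps (within 0.05 step). Every column of an array had the same total. Each column was rescaled to 10000 and log2 was taken after adding 0.05. Genes with a mean of at least 0.05 were kept, and 1127 and 1139 genes listed for only 1 array were set to 0 in the other. The difference within each mouse was tested with limma 3.58.1 in R 4.3.3 (eBayes with a variance trend). edgeR 4.0.16 was run on the recovered counts as 1 of the alternatives, beside scaling, filters, added constants, array, thinning and mice left out. The 3 UMI floor of a column covers counting error only, and standard errors and intervals cover the spread between mice. The 5 mice are separate animals and the pairing comes from the labels. Over 1455 genes, CP and LSX deviations of the same mouse correlated at 0.353 to 0.58, higher than with any other mouse's LSX in 4 of 5 mice (mouse 784 reached 0.488 with another mouse, and mouse 802 had 0.58 against 0.574). In simulated data, 97 of 100 genes with a true log2 difference of 1 were recovered over 10636 genes. The changed genes were drawn only from those at 0.5 or more per 10000 in the CP, with a fixed spread between mice. Recovery at lower levels was not assessed, and of the 11097 real genes 3636 pass a filter at 0.5. With 5 mice, an exact two-sided sign-flip test of 1 gene cannot give a p below 0.0625. The members and lists were chosen with earlier results of these data known. Named genes were the 12 largest differences in each direction (1 direction in all mice, mean of at least 1 in the higher region), up to 4 members of each list with the smallest p, the disc-choice genes and Drd1. The other genes named were chosen after their values were seen. Sequences and positions are from RefSeq (GRCm38.p6), with windows for 108 of 139 named genes. Some genes of the lists are not reported here by name.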

Additional observations from a re-analysis of the deposited data

Results flagged for a closer look

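The per-mouse differences (CP minus LSX, log2) of 139 named genes were screened for a mouse far from the others, by the gap to the nearest mouse over the whole range (Dixon's critical value of 0.71 for 5). Chance gives about 1 in 20, and 12 genes were past it. Mouse 784, whose LSX held 6 discs, stood apart for 7 of the 12. In it Scn4b differed by 6.45 (4.32 to 4.57 in the others), Rxrg by 5.66 (3.61 to 3.93), Adora2a by 5.19 (4.45 to 4.56) and Ly6c1 by 2.03 (0.39 to 0.73). Gad2 was at -1.32 in that mouse (-0.63 to -0.49), Rsph1 at -2.92 (-0.98 to -0.54) and Igfbp2 at 1.20 (-2.43 to -2.03), the sign opposite to the others. Scn4b, Rxrg, Adora2a and Igfbp2 had no LSX UMI there, so that the opposite sign of Igfbp2 rests on a count of 0. Mouse 802 stood apart for Kcnj4 at 4.79 (3.20 to 3.65), with no LSX UMI in that mouse, Cldn11 at 2.44 (1.02 to 1.32) and Stmn2 at -2.29 (-2.43 to -2.40). Mouse C2W2 stood apart for Inhba at 2.35 (1.57 to 1.68) and Rgs5 at 1.1 (0.45 to 0.53). The part of depth in these values was not tested.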

How the results depend on the processing

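Of 126 named genes called, 108 kept their direction and call in every alternative run. The count of genes higher in the CP (1415) was 2129 with TMM scaling, 681 with a filter at 0.5, 2337 with edgeR and 752 within the array of 3 mice. The count higher in the LSX (2074) was 1177, 1173, 2184 and 1087 in the same order. Leaving out 1 mouse gave 1118 to 1760 and 1554 to 2641 genes, lowest without mouse 785 and highest without mouse 784. In GqCNO mice, leaving out 1 mouse gave 579 to 1422 and 471 to 1970 genes, an alternative chosen after seeing the data, as were the lists under TMM scaling. The count that differed between control groups ran from 0 to 2. The fit without the pairing of regions by mouse (no replicate block) gave 1239 and 1881 genes. Thinning the CP counts to LSX depth gave 972 and 1525. Signs reversed for named genes that were not called: Aldh1l1 with TMM scaling (0.0796) and edgeR (0.000211), Nrn1 when 1 mouse was left out (-0.595 without mouse 802 to 0.0639 without mouse C1W7) and within the array of 2 mice (0.26), Olig1 when 1 mouse was left out (-0.0383 without mouse 784 to 0.283 without mouse C1W7), Slc17a7 after thinning (-0.21) and Vcan with edgeR (0.00496) and within the array of 2 mice (0.00122). The causes were not tested. Of the tested genes, 1615 had no LSX UMI in 1 or more mice, 1462 of them in mouse 784.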
